A study of Homo sapiens with 18 samples.

Results

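The genes of de novo fatty acid synthesis, elongation and desaturation were followed in SJSA cells treated with a CDK4/6 inhibitor, with an MDM2 antagonist, or with both. The 10 genes ACLY, ACSS2, ACACA, FASN, ELOVL6, ELOVL5, SCD, FADS1, FADS2 and SREBF1 were taken by symbol from the 23368 gene rows of the count tables, and each was found as 1 row. All 10 passed the filter on low counts in every comparison. SJSA is an osteosarcoma cell line in which MDM2 and CDK4 are both amplified. Each of 6 groups had 3 replicate libraries. DMSO was the solvent control. Nutlin, which blocks the binding of MDM2 to p53, was given for 6 h at 20 µM per the labels, although the scheme drawn by the study writes a lower concentration. PD0332991 (Palbociclib), which inhibits CDK4 and CDK6, was given at 10 µM, either for all 30 h (PD30) or for 24 h followed by 6 h without it (PD24). N+PD30 and N+PD24 combined Nutlin in the last 6 h with each of these schedules, so that in N+PD24 the inhibitor was taken away before Nutlin came. Whether the medium of the other groups was also changed at the time of removal is not stated in the sources used here. All libraries came from 1 cell line, and p-values measure the spread between the 3 cultures of a group.

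Mammalian cells build fatty acids from acetyl-CoA in the cytosol. ACLY makes acetyl-CoA from citrate and ACSS2 makes it from acetate, ACACA carboxylates it to malonyl-CoA, and FASN uses malonyl-CoA to build palmitate. ELOVL6 extends palmitate to stearate, SCD places the first double bond to give oleate or palmitoleate, and FADS2, ELOVL5 and FADS1 act in turn on polyunsaturated fatty acids. Many of these genes are targets of the SREBP transcription factors, of which SREBF1 encodes SREBP-1. SREBPs are made as membrane-bound precursors and are released by cleavage when sterols are low, a step that an mRNA level does not report. Proliferating tumour cells often make much of their own fatty acid.

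The members lie on 6 chromosomes of hg19 (GRCh37, gene spans from GENCODE). ACLY spans chr17:40023170-40086795 on the minus strand, and 3 more members lie on the same chromosome, namely ACACA at chr17:35441927-35766927, FASN at chr17:80036214-80056170 and SREBF1 at chr17:17713713-17740316, all on the minus strand. SCD spans chr10:102106990-102124583 and ACSS2 spans chr20:33459949-33515765, both on the plus strand. ELOVL6 at chr4:110967002-111120355 and ELOVL5 at chr6:53132196-53213977 are on the minus strand. FADS1 at chr11:61567099-61596790 on the minus strand and FADS2 at chr11:61560452-61634826 on the plus strand are neighbours whose annotated spans overlap. Exons of FADS1 and FADS2 overlap each other on opposite strands, SREBF1 overlaps exons of RAI1 on the opposite strand, and FADS2 and FADS1 share exon bases on the same strand with FEN1 and MIR1908 respectively. Reads were counted with a strand setting, but whether the library kit kept the strand is not stated, so reads in these overlaps may have been split or lost.

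RefSeq windows around transcription start sites (GRCh38.p14, 250 bases before to 50 after the start, 300 in all) were found for 9 of the 10 members, in 14 windows, and none was found for FASN. The 4 stretches printed here give the 250 bases before the start, 5′ to 3′ on the gene's own strand, of a member that rose strongly with PD0332991 (SCD), the one with the smallest rise among those called (ELOVL5), and 2 that fell on removal of the drug to a mean below that of DMSO (FADS1 and ELOVL6). Capitals mark the letters CCAAT, the box bound by NF-Y, on either strand (ATTGG on the reverse). SCD was read at chr10:100346983-100347232 (plus strand), ELOVL5 at chr6:53348951-53349200, FADS1 at chr11:61817004-61817253 and ELOVL6 at chr4:110198616-110198865 (minus strand).
SCD: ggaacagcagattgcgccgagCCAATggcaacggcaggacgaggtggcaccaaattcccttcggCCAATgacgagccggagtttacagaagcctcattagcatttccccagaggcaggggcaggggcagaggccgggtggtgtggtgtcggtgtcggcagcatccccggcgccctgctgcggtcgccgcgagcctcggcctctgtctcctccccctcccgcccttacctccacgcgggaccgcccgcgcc
ELOVL5: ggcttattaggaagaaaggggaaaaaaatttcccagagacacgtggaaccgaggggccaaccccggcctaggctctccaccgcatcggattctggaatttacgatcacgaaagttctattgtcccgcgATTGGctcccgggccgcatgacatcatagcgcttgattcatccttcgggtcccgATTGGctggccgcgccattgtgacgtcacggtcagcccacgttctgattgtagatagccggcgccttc
FADS1: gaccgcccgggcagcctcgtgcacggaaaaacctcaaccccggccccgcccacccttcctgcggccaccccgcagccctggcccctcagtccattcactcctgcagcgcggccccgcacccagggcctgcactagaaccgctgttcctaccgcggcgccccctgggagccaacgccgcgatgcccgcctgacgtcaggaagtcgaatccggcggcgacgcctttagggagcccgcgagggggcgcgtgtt
ELOVL6: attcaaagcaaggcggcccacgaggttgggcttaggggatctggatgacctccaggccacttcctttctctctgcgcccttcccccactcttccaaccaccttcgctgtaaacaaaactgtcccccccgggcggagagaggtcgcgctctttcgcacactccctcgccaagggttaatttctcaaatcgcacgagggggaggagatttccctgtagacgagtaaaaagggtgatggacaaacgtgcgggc
SCD and ELOVL5 each held 2 such boxes, and FADS1 and ELOVL6 held none. ELOVL5 itself also fell on removal to a mean below that of DMSO (243 CPM in DMSO, 197 CPM in PD24). So did ACACA (110 and 96.6 CPM), which held CCAAT as well. Whether the boxes go with any of these traits was not tested. Over the whole 300 bases, CCAAT was found in 8 of the 14 windows and in 34.6% of all 35116 windows of the table. Those 8 windows belong to 6 members (ACACA, ACLY, ACSS2, ELOVL5, FADS2 and SCD). The GC box GGGCGG, bound by Sp1, was found in 11 of the 14 windows, of 8 members, and in 44.95% of all windows. The E-box CACGTG was found in 1 of the 14, of ELOVL5, and in 7.26% of all windows. The sterol regulatory element in the form TCACNCCAC, with N for any base, was found in none of the 14 windows and in 1.13% of all windows. The E2F site TTTNGCGC was found in 1 of the 14 windows, of ACACA, and in 1.79% of all windows. Each motif was searched on both strands, and 0 pairs of matches to different motifs shared a base in these 14 windows. A match is a description of letters, and no match says only that these letters are not in this window.

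Total counts on genes ranged from 12704845 to 40231041 per library, and N+PD30 replicate 1 was the shallowest. This library was also the lowest of its group for the sum of the 10 members, at 2756 CPM against 4793 and 5148 in the other N+PD30 libraries. Replicate 1 was the lowest of its group for this sum in PD24 (1482 against 2190 and 2693 CPM) and in N+PD24 (1566 against 2377 and 2713 CPM) too, so results that rest on the groups PD24, N+PD24 and N+PD30 are also given without the libraries numbered 1 where the call changes. CPM is the count on a gene relative to the total over all genes of the same library. Of the osteoblast lineage markers, SPARC (1398 to 1466 CPM in DMSO), COL1A1 (1122 to 2296 CPM) and RUNX2 (28.3 to 32.8 CPM) were present, whereas SP7, BGLAP and IBSP were at most 0.035 CPM in DMSO. The sum of the 6 adipocyte markers was 31.8 to 37.3 CPM in DMSO and 40.1 to 44.9 CPM in PD30, most of it PPARG, with ADIPOQ near 1 CPM and PLIN1 under 0.4 CPM in both. Of the 4 tested, 2 were higher and none lower in PD30 than in DMSO (edgeR's test, as below), where 22.9% of all genes were higher. FABP4, the 1 marker of 3 called higher in PD24 against DMSO, had means of 3.43 CPM in DMSO and 8.22 CPM in PD24. Its log2 fold change there was 1.28, and 17.5% of all genes were higher. The sums of 4 epithelial and of 4 blood cell markers were at most 2.73 and 0.68 CPM in any library. The part of these levels in the results below was not tested.

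Per kilobase of the canonical transcript, the members in DMSO ranked from ELOVL5 (87.9 ± 1.81 CPM per kb, SD, n = 3) and ACLY (83.7 ± 1.499) through SCD (60.3 ± 4.81), FADS1 (37.5 ± 2.24), FASN (23.1 ± 6.17), FADS2 (20.7 ± 1.10), SREBF1 (12.4 ± 2.68), ACACA (11.01 ± 0.083) and ACSS2 (10.2 ± 0.66) to ELOVL6 (5.91 ± 0.15). FASN and FADS2 did not differ beyond their spread, and neither did SREBF1 from ACACA or ACSS2. In PD30 the order was another one. SCD stood first at 309 ± 23.9 CPM per kb, followed by ACLY (174 ± 0.25), FADS2 (128 ± 12.01), ELOVL5 (112 ± 2.89), ACSS2 (72.8 ± 1.81), FASN (70.5 ± 18.9), FADS1 (68.7 ± 1.47), ACACA (21.3 ± 0.97), ELOVL6 (19.2 ± 1.33) and SREBF1 (12.98 ± 0.50). FASN did not differ from ACSS2 or FADS1 beyond its spread there.

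**Figure D1:**
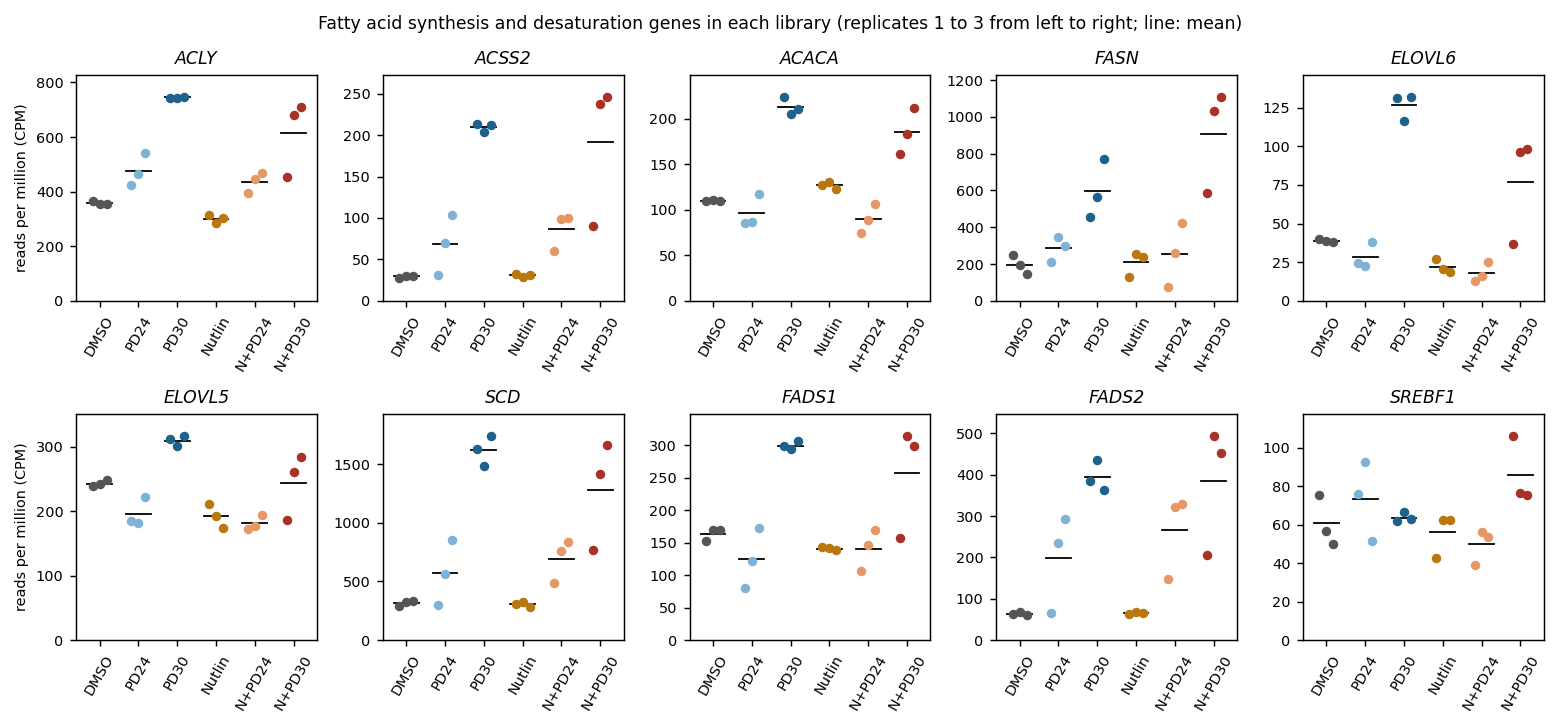
Each panel plots 1 gene, with CPM on a linear axis from 0 and the 6 groups along the horizontal axis; points are libraries (replicates 1 to 3 from left to right) and lines are group means. In 9 panels the 3 PD30 libraries lie above all DMSO libraries, and in the panel of SREBF1 the groups overlap.

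The first comparison asked whether the genes moved while PD0332991 was present. In PD30 against DMSO, 9 of the 10 members were higher and none was lower, and SREBF1 did not pass the test (edgeR's quasi-likelihood test, Benjamini-Hochberg adjusted p under 0.05 over 15125 genes). Among all genes tested, 22.9% were called higher and 25.4% lower. The PD30 libraries lay above every DMSO library for the same 9 members, as they did for 28.5% of all genes. The median log2 fold change over the 10 members was 1.31, beside 0.0020 over all genes tested. In bulk RNA, fewer cells of a type and less RNA per cell cannot be told apart.

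Both genes that supply acetyl-CoA rose. ACSS2, which activates acetate, had 27.1, 30.5 and 30.4 CPM in DMSO and 214, 204 and 213 CPM in PD30. Its log2 fold change of 2.83 ± 0.083 (SE, adjusted p = 8.83e-09 in edgeR's test), or 7.09-fold, was the largest of the members and ranked 40 among the 15125 genes tested. ACLY, which splits citrate, had 367, 356 and 355 CPM in DMSO and 744, 744 and 746 CPM in PD30, a rise by 1.04 ± 0.066 on the log2 scale (adjusted p = 1.75e-06). The coefficient of variation of ACLY over the 3 PD30 libraries was 0.146%.

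ACACA and FASN, the committed step and the synthase itself, differed in spread. ACACA had 110, 111 and 109 CPM in DMSO and 224, 205 and 210 CPM in PD30, a rise by 0.94 ± 0.071 on the log2 scale (adjusted p = 6.01e-06). FASN had 249, 194 and 144 CPM in DMSO and 456, 563 and 771 CPM in PD30. The groups did not overlap, and FASN rose by 1.59 ± 0.22 on the log2 scale (adjusted p = 0.00033). FASN varied between replicates in every group, with a coefficient of variation of 24.1% to 69.4% over the 6 groups, against 0.755% to 19.1% for ACACA.

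The elongases stood apart from each other. ELOVL6, which acts on palmitate, had 39.8, 38.8 and 37.9 CPM in DMSO and 131, 116 and 132 CPM in PD30, a rise by 1.69 ± 0.081 on the log2 scale (adjusted p = 2.47e-07). ELOVL5, which extends polyunsaturated chains, had 239, 242 and 249 CPM in DMSO and 312, 301 and 316 CPM in PD30. This was the smallest called change, a log2 fold change of 0.33 ± 0.066 (adjusted p = 0.0026), and it was lost when all 18 libraries shared 1 estimate of the spread in limma (0.30, adjusted p = 0.053).

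All 3 desaturases rose. SCD, the stearoyl-CoA desaturase, had 288, 328 and 334 CPM in DMSO and 1632, 1487 and 1738 CPM in PD30, a rise by 2.34 ± 0.091 on the log2 scale (adjusted p = 5.08e-08), or 5.06-fold. FADS2, the delta-6 desaturase, had 63.0, 67.8 and 61.3 CPM in DMSO and 385, 436 and 364 CPM in PD30, a rise by 2.61 ± 0.098 on the log2 scale (adjusted p = 4.05e-08). Its neighbour FADS1, the delta-5 desaturase, had 152, 170 and 169 CPM in DMSO and 298, 294 and 307 CPM in PD30. FADS1 thus rose less than FADS2 in log2 terms, by 0.86 ± 0.074 (adjusted p = 1.49e-05), with 95% intervals of 0.69 to 1.02 and 2.39 to 2.83 that did not meet.

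SREBF1, the gene of the transcription factor, had 75.4, 56.9 and 49.9 CPM in DMSO and 61.6, 66.4 and 62.8 CPM in PD30. The groups overlapped, and the log2 fold change was 0.05 ± 0.14 (95% interval -0.26 to 0.37, adjusted p = 0.79). The counts are per gene symbol, so transcript forms of SREBF1 were not separated.

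**Figure D2:**
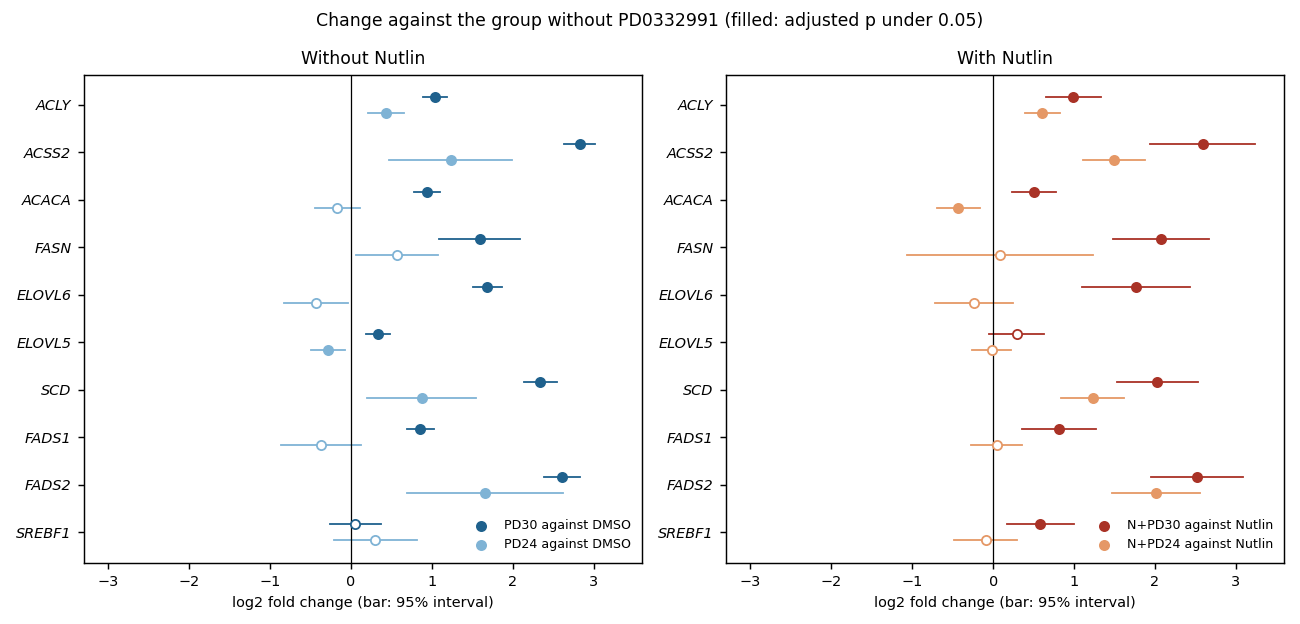
Points are log2 fold changes of each gene against the group without PD0332991 and bars are 95% intervals, without Nutlin on the left and with Nutlin on the right; filled points passed an adjusted p of 0.05. Without Nutlin, the point after removal (PD24) lies to the left of the point with PD0332991 present for all genes but SREBF1. With Nutlin, the point after removal (N+PD24) lies to the left for every gene.

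The next comparisons asked whether the genes returned once PD0332991 was taken away. In PD24 against PD30, the direct test of removal, 8 of the 10 members were lower and none was higher (edgeR's test). Among the 15171 genes tested, 12.2% were called lower and 12.9% higher. For 9 members every PD24 library lay below every PD30 library, as was so for 22.9% of all genes. The median log2 fold change of the members was -1.06, beside 0.020 over all genes. The fall was largest for ELOVL6, which had 24.2, 22.8 and 38.2 CPM in PD24 and fell by 2.12 ± 0.18 on the log2 scale (adjusted p = 0.00022). ACSS2 fell by 1.59 ± 0.33 (adjusted p = 0.0083), SCD by 1.47 ± 0.30 (adjusted p = 0.0077) and FADS1 by 1.22 ± 0.22 (adjusted p = 0.0044). These 4 genes reached different levels, since ELOVL6 and FADS1 had a lower mean in PD24 than in DMSO and ACSS2 and SCD a higher one. ACACA fell by 1.11 ± 0.13 (adjusted p = 0.00065) and FASN by 1.02 ± 0.22 (adjusted p = 0.010). ELOVL5 fell by 0.62 ± 0.099 (adjusted p = 0.0026) and ACLY by 0.61 ± 0.10 (adjusted p = 0.0035). The call of FASN was lost with 1 estimate of the spread over all 18 libraries (adjusted p = 0.12), and those of ACLY and ELOVL5 without the libraries numbered 1 (adjusted p = 0.064 and 0.066). FADS2 had 65.6, 236 and 294 CPM in PD24, all below the PD30 libraries, and a log2 fold change of -0.96 ± 0.41 that missed the threshold (adjusted p = 0.12). With the replicate number as a block, which the check of pairing called for here, FADS2 fell by 1.19 (adjusted p = 0.023). SREBF1 had 75.8, 92.6 and 51.7 CPM in PD24, with a log2 fold change of 0.25 ± 0.19 (adjusted p = 0.38).

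**Figure D3:**
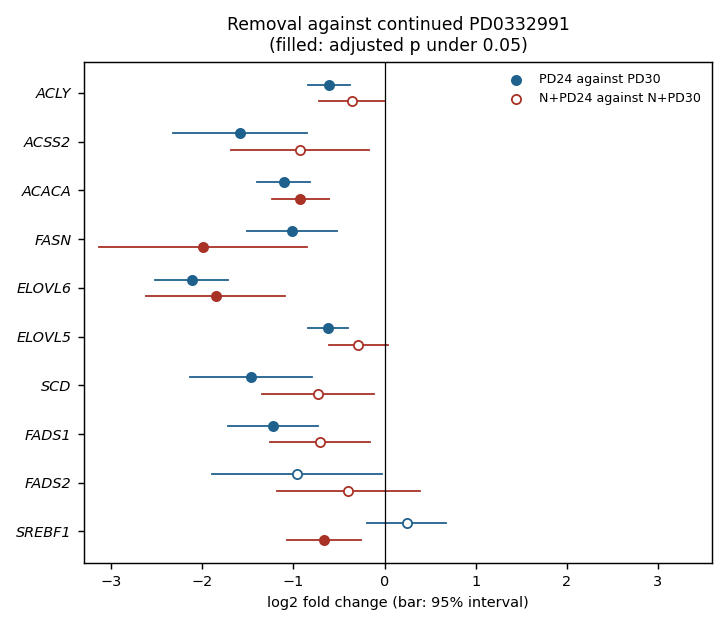
Points are log2 fold changes of the groups from which PD0332991 was removed against those in which it stayed, with 95% intervals, without Nutlin (blue) and with Nutlin (red); filled points passed an adjusted p of 0.05. Without Nutlin 8 genes are filled and lower, and with Nutlin 4 genes are.

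Against DMSO, PD24 showed 4 members higher and 1 lower (edgeR's test), where 17.5% of the 15094 genes tested were higher and 20.8% lower. This comparison shares the DMSO libraries with that of PD30 and the PD24 libraries with that of removal. FADS2 was 1.65 ± 0.43 higher on the log2 scale (adjusted p = 0.015), although PD24 replicate 1, at 65.6 CPM, lay within the range of DMSO. ACSS2 had 31.5, 69.3 and 103 CPM in PD24, a log2 fold change of 1.23 ± 0.34 (adjusted p = 0.019). SCD had 297, 566 and 854 CPM, a log2 fold change of 0.87 ± 0.30 (adjusted p = 0.044). For these 3 genes replicate 1 was at or near the level of DMSO and replicate 3 was the highest. ACLY was more even, with 424, 464 and 542 CPM and a log2 fold change of 0.43 ± 0.099 (adjusted p = 0.0085). The calls of SCD and ACSS2 were lost without PD24 replicate 3 (log2 fold changes of 0.49 and 0.82, adjusted p = 0.13 and 0.051), and that of ACSS2 also without DMSO replicate 1 or 2 (adjusted p = 0.055 and 0.051). That of SCD was lost too without each DMSO replicate, without PD24 replicate 2 and with all 18 libraries in 1 fit (adjusted p of 0.057 to 0.11).

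ELOVL5, at 185, 182 and 222 CPM, was below DMSO in PD24 by 0.29 ± 0.093 on the log2 scale (adjusted p = 0.037), a call that was lost when any library other than PD24 replicate 3 was left out. ELOVL6 (log2 fold change -0.43 ± 0.18, adjusted p = 0.083), FADS1 (-0.37 ± 0.22, adjusted p = 0.22) and ACACA (-0.17 ± 0.12, adjusted p = 0.30) did not pass the test. Without PD24 replicate 3 all 3 of them passed it and were lower, by 0.69, 0.65 and 0.32. FASN, at 212, 349 and 298 CPM, had a log2 fold change of 0.58 ± 0.22 (adjusted p = 0.071). It passed the test and was higher under 5 of 13 alternatives, among them that without the libraries numbered 1 (0.96, adjusted p = 0.017), where 5 members were higher and 0 lower. SREBF1 had a log2 fold change of 0.30 ± 0.23 (adjusted p = 0.33). As a description, the part of the difference in mean log2 CPM between PD30 and DMSO that was gone in PD24 was 47.7% for FADS2, 61.9% for ACLY, 62.9% for ACSS2, 65.5% for FASN and 69.0% for SCD. It was above 100% for ACACA (122%), ELOVL6 (129%), FADS1 (152%) and ELOVL5 (190%), whose mean in PD24 was below that in DMSO. Without the libraries numbered 1, the part gone was 22.8% for FADS2, 46.8% for ACSS2, 52.1% for FASN, 53.02% for SCD and 53.6% for ACLY, and 114% to 186% for the other 4 genes.

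Nutlin alone was compared with DMSO next. In Nutlin against DMSO, ACACA was higher and ELOVL6 lower (edgeR's test), and 8 members did not pass it, while 26.6% of the 15766 genes tested were higher and 28% lower. ACACA had 127, 131 and 123 CPM in Nutlin, a log2 fold change of 0.33 ± 0.084 (adjusted p = 0.0076). ELOVL6 had 26.8, 20.8 and 18.4 CPM, a log2 fold change of -0.69 ± 0.14 (adjusted p = 0.0027). In CPM, which is scaled by the library total, ACLY, ELOVL5, ELOVL6 and FADS1 were below all DMSO libraries in all Nutlin libraries, as were 38.5% of all genes. With scaling by total counts in edgeR's test, 4 members were lower and 1 higher, and the split over all genes moved from 4198 higher and 4416 lower to 3151 and 5439. The 6 p53 response markers, among them CDKN1A and MDM2, all rose in this comparison, by 3.28 on the log2 scale at the median. For SCD, with 305, 321 and 284 CPM, the 95% interval of the log2 fold change was -0.15 to 0.29, and for FADS2, with 62.2, 66.7 and 65.2 CPM, it was -0.061 to 0.34.

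In N+PD30 against Nutlin, with PD0332991 present, 9 of the 10 members were higher and none was lower (edgeR's test), where 24.3% of the 15721 genes tested were higher and 24.7% lower. The 3 N+PD30 libraries lay above all Nutlin libraries for the same 9 members, as for 29.7% of all genes. The log2 fold changes were largest for ACSS2 (2.59 ± 0.30, adjusted p = 5.59e-05) and FADS2 (2.52 ± 0.26, adjusted p = 2.65e-05). ACSS2 had 90.8, 238 and 246 CPM in N+PD30 and 28.8 to 32.8 CPM in Nutlin. FADS2 had 207, 493 and 453 CPM in N+PD30 and 62.2 to 66.7 CPM in Nutlin. In both genes replicate 1 was far below the other N+PD30 libraries and was still above Nutlin.

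FASN had 587, 1030 and 1108 CPM in N+PD30 and 131, 255 and 240 CPM in Nutlin, a log2 fold change of 2.08 ± 0.27 (adjusted p = 0.00013). SCD had 768, 1420 and 1661 CPM, a log2 fold change of 2.03 ± 0.23 (adjusted p = 4.78e-05). ELOVL6 had 36.9, 96.4 and 98.3 CPM, a log2 fold change of 1.76 ± 0.30 (adjusted p = 0.00078). These 3 genes repeated the order of replicates, with replicate 1 the lowest. ACLY rose by 0.99 ± 0.16 (adjusted p = 0.00044), FADS1 by 0.82 ± 0.21 (adjusted p = 0.0073) and ACACA by 0.50 ± 0.12 (adjusted p = 0.0060) on the log2 scale. SREBF1 had 106, 76.6 and 75.6 CPM in N+PD30 and 42.8, 62.5 and 62.7 CPM in Nutlin, and rose by 0.58 ± 0.19 (adjusted p = 0.025). Here replicate 1 was the highest N+PD30 library and the lowest Nutlin library. The call of SREBF1 was lost without N+PD30 replicate 1 (log2 fold change 0.39, adjusted p = 0.074), without Nutlin replicate 1 (0.43, adjusted p = 0.086), and without both (0.23, adjusted p = 0.15). ELOVL5 had 186, 261 and 285 CPM against 175 to 212 CPM, a log2 fold change of 0.29 ± 0.16 (adjusted p = 0.15), and without N+PD30 replicate 1 it rose by 0.44 (adjusted p = 0.017).

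For removal before Nutlin, N+PD24 was compared by limma on log2(CPM + 1), since its values were deposited as a scaled signal. Fold changes on this scale understate those of low genes. Against Nutlin, 4 members were higher and 1 lower, where 17% of the 15927 genes tested were higher and 17.2% lower. FADS2 had 148, 323 and 330 CPM in N+PD24, 2.01 ± 0.24 higher (adjusted p = 0.00024). ACSS2 had 59.7, 99.2 and 100 CPM and was 1.49 ± 0.17 higher (adjusted p = 0.00017). SCD had 483, 764 and 840 CPM and was 1.23 ± 0.17 higher (adjusted p = 0.00059). ACLY had 395, 446 and 468 CPM and was 0.61 ± 0.096 higher (adjusted p = 0.0011). FADS2, ACSS2, SCD and ACLY were called higher in PD24 against DMSO too. Here all 3 libraries lay above the Nutlin libraries, as for 19.7% of all genes. ACACA, at 74.9, 89.1 and 106 CPM, was lower by 0.43 ± 0.12 (adjusted p = 0.020), a call lost without replicate 2 of either group (adjusted p = 0.059 and 0.071). ELOVL6 (-0.24 ± 0.21, adjusted p = 0.42), FADS1 (0.042 ± 0.14, adjusted p = 0.85), ELOVL5 (-0.016 ± 0.11, adjusted p = 0.93), SREBF1 (-0.094 ± 0.17, adjusted p = 0.71) and FASN (0.084 ± 0.51, adjusted p = 0.92) did not pass the test. For FASN the 3 libraries spread from 73.7 through 261 to 425 CPM, and the 95% interval reached from -1.06 to 1.23. As a description, the part of the difference between N+PD30 and Nutlin that was gone in N+PD24 was 20.8% for FADS2, 42.0% for ACSS2, 42.3% for SCD and 47.0% for ACLY. It was 99.5% for FASN, and 104% to 194% for FADS1, ELOVL6, ELOVL5 and ACACA. Without the libraries numbered 1 it was 79.6% for FASN, 85.0% for FADS1 and 18.8% for FADS2.

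In N+PD24 against N+PD30, 4 of the 10 members were lower and none was higher (limma), where 15.9% of the 15339 genes tested were lower and 16.3% higher. FASN fell by 1.995 ± 0.51 on the log2 scale (adjusted p = 0.015), ELOVL6 by 1.85 ± 0.34 (adjusted p = 0.0034), ACACA by 0.92 ± 0.14 (adjusted p = 0.0014) and SREBF1 by 0.66 ± 0.18 (adjusted p = 0.021). The other members had negative log2 fold changes between -0.93 (ACSS2, adjusted p = 0.061) and -0.29 (ELOVL5, adjusted p = 0.16). The count depended on the method and on 1 library. With all libraries kept, 7 members were lower with edgeR on the recovered reads, with quantile normalization or with scaling by total counts, and 9 with the replicate block or with 1 fit over all 18 libraries. Scaling by total counts also moved the split over all genes from 2504 higher and 2436 lower to 1908 and 3151. Without N+PD30 replicate 1, 9 members were lower, and without all libraries numbered 1, all 10 were. For SREBF1 the call was lost without N+PD24 replicate 1 (-0.52, adjusted p = 0.062).

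Whether the change with PD0332991 differed between cells with and without Nutlin was tested by an interaction term. For PD30, 1 member, ACACA, passed the test (edgeR's test over 16113 genes), where 7.03% of all genes had a lower and 12.8% a higher change with Nutlin. The change of ACACA was 0.39 ± 0.13 smaller on the log2 scale with Nutlin (adjusted p = 0.049, and up to 0.23 under the alternatives, 14 of which lost the call), and the other members did not pass. Without the libraries numbered 1, ACACA did not pass, and 1 other member passed with a higher change with Nutlin. Over all genes, 1303 were then higher and 580 lower. For SREBF1 the difference was 0.57 ± 0.27 (adjusted p = 0.15), and for SCD the 95% interval of the difference was -0.85 to 0.31. For PD24, 0 members passed in limma, 0 had an unadjusted p under 0.05 and 0 passed in edgeR on the recovered reads, where 0.752% of the 16355 genes had a lower and 0.997% a higher change with Nutlin. The intervals of these differences were wide, for instance -0.65 to 1.87 for FADS2.

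Genes of neighbouring pathways, taken from lists chosen with earlier results of these data known, moved in part with the members. Of the 22 cholesterol synthesis and uptake genes tested, 21 were higher in PD30 than in DMSO, with a median log2 fold change of 1.87, and 20 were lower in PD24 than in PD30, with a median of -1.51 (edgeR's test). The shares over all genes were 22.9% and 12.2%. The largest rises were those of MSMO1 (3.19), MVD (2.77) and DHCR7 (2.75), enzymes of the mevalonate and sterol branches, which fell on removal by 3.22, 1.45 and 1.08, the call of DHCR7 being lost under 4 of 13 alternatives. In N+PD30 against Nutlin, 21 of 22 were higher as well, beside 24.3% of all genes, with MVD at 3.30, DHCR7 at 2.85 and MSMO1 at 2.74. The summed level of the 23 genes of this list was 3662 CPM in N+PD30 replicate 1 and 6829 and 7612 CPM in the other N+PD30 libraries, so this library was low for both pathways. Replicate 1 was the lowest for this sum in PD24 (1265 against 1945 and 2798 CPM) and in N+PD24 (1519 against 2439 and 2970 CPM) too.

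Of 13 genes of SREBP processing and upstream regulation, 9 were higher and 1 lower in PD30 than in DMSO, and 7 were lower in PD24 than in PD30. Among all genes tested, 22.9% were higher and 25.4% lower in PD30 than in DMSO, and 12.2% were lower in PD24 than in PD30. SREBF2, the gene of SREBP-2, rose by 1.45 on the log2 scale (adjusted p = 7.91e-07), in contrast to SREBF1, and fell on removal by 0.77 (adjusted p = 0.021), a call lost without PD30 replicate 2 or 3 (adjusted p = 0.051 and 0.060). INSIG1, which holds SREBPs in the endoplasmic reticulum and is itself an SREBP target, rose by 2.16 and fell on removal by 3.15. MLXIPL, the gene of ChREBP, stayed under 1 CPM on average in both groups, with a log2 fold change of 3.28. RXRA, a partner of the LXR receptors, had a log2 fold change of -0.81 (adjusted p = 0.0029). Under Nutlin, 9 of 12 were higher with PD30, beside 24.3% of all genes, led by INSIG1 (1.97), SREBF2 (1.24) and SCAP (1.02), the escort protein of SREBPs. RXRA was lower (-0.59), a call lost without Nutlin replicate 2 (adjusted p = 0.055).

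Of 5 targets of the LXR receptors, which respond to oxysterols, 3 were lower and 1 higher in PD30 than in DMSO, and 3 were higher in PD24 than in PD30. Among all genes tested, 25.4% were lower and 22.9% higher in PD30 than in DMSO, and 12.9% were higher in PD24 than in PD30. ABCA1 and ABCG1, which export cholesterol, had log2 fold changes of -2.57 and -2.34 in PD30 against DMSO, and MYLIP, which degrades the LDL receptor, had -1.72. On removal they rose by 3.74, 1.71 and 1.56 (adjusted p of 8.72e-05, 0.00098 and 0.00097 in edgeR's test). In N+PD30 against Nutlin, ABCA1 had -1.87, ABCG1 -1.85 and MYLIP -1.52. APOE, at 2.11 CPM in DMSO and 3.50 CPM in PD30 on average, was higher by 0.71 (adjusted p = 0.048, lost under 6 of 12 alternatives). SREBF1, which is known as an LXR target too, was counted among the members and did not pass the test there.

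**Figure D4:**
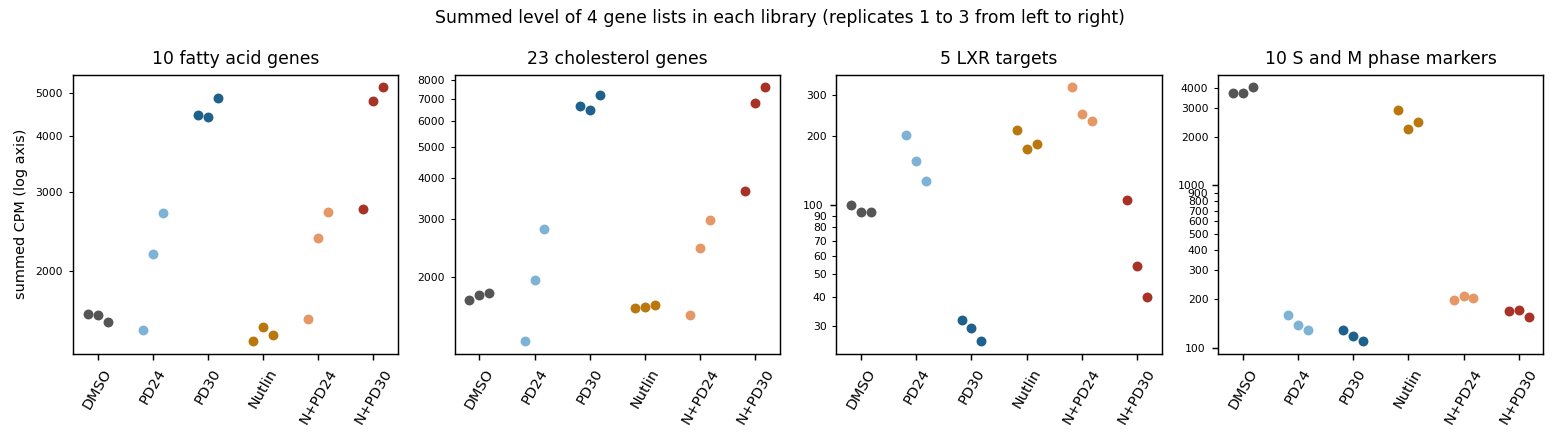
Each panel gives the summed CPM of 1 gene list in each library on a log axis, by group. The sums of the fatty acid and cholesterol lists are high with PD0332991 present and lower after its removal, the LXR targets show the reverse, and the S and M phase markers stay low in all 4 groups that had received PD0332991.

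The S and M phase markers were followed beside the members. Their sum was 3713 to 4031 CPM in DMSO, 109 to 129 CPM in PD30 and 129 to 159 CPM in PD24, with all 10 markers lower than DMSO in both groups. Among all genes tested, 25.4% were lower than DMSO in PD30 and 20.8% in PD24. In PD24 against PD30, 2 of these markers were higher, 1 was lower and 7 did not pass the test. The shares of all genes there were 12.9% higher and 12.2% lower. With Nutlin the sum was 2238 to 2899.5 CPM, and it was 155 to 172 CPM in N+PD30 and 198 to 207 CPM in N+PD24. The part of these markers in the values of the members was not tested.

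Partners of the members within fatty acid synthesis moved less uniformly. Of 15 genes tested that supply or activate fatty acids, 6 were higher and 1 lower in PD30 than in DMSO, and the median log2 fold change was 0.26. Among all genes tested, 22.9% were higher and 25.4% lower. The citrate carrier SLC25A1 rose by 1.15, the acyl-CoA synthetase ACSL4 by 1.10 and HSD17B8, at under 2 CPM, by 0.92. ACACB, the acetyl-CoA carboxylase of the outer mitochondrial membrane, fell by 1.38 while its paralogue ACACA rose, and on removal it rose by 0.76 (adjusted p = 0.0093). MID1IP1, which promotes polymerization of acetyl-CoA carboxylase, had a log2 fold change of 0.16 (adjusted p = 0.61) in PD30 against DMSO and of 2.41 (adjusted p = 8.06e-06) in N+PD30 against Nutlin. In that comparison SLC25A1 rose by 1.39 and MCAT, the mitochondrial malonyl transferase, by 0.96, and ACSL6 fell by 1.73 and ACACB by 0.90. The change with PD30 differed with Nutlin for MID1IP1 (2.29, adjusted p = 0.00084), MCAT (0.74, adjusted p = 0.013) and ACSL6 (-2.29, adjusted p = 0.0011, edgeR's test of the interaction). SLC25A1 and ACACB did not pass that test. In Nutlin against DMSO, the 15 genes ranged from -1.88 to 2.50 on the log2 scale.

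Of 13 elongation and desaturation partners tested, 5 were higher and 3 lower in PD30 than in DMSO, and their median log2 fold change was 0.12. Among all genes tested, 22.9% were higher and 25.4% lower. HSD17B12, the ketoreductase of the elongation cycle, rose by 1.32, FADS3 by 1.26 and PTPLA, a dehydratase of that cycle, by 0.93. ELOVL2 had a log2 fold change of -2.48, PTPLAD1 of -0.49 and SCD5 of -0.31, whose call was lost under 3 of 12 alternatives. Only HSD17B12 of the 13 was lower in PD24 than in PD30 (-0.57, adjusted p = 0.0081), where 12.2% of all genes were lower. FADS3 and ELOVL2 still differed from DMSO after removal, by 1.36 and -2.37 (adjusted p = 1.97e-05 and 1.93e-06). In N+PD30 against Nutlin, the elongases ELOVL4 (1.10) and ELOVL1 (0.83) and FADS3 (0.98) were higher, and ELOVL2 (-2.72) and PTPLAD1 (-0.39) lower, the last call being lost under 4 of 13 alternatives (adjusted p up to 0.10). The change with PD30 was larger with Nutlin for ELOVL4 (by 0.85, adjusted p = 0.0094) and ELOVL1 (by 0.37, adjusted p = 0.041, edgeR's test of the interaction). The other 3 did not pass that test.

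The genes whose pattern over the 18 libraries was most like that of the members were sought among 9493 genes with a mean of at least 10 CPM, by Pearson's r of log2 CPM with the mean of the members' centred log2 CPM. Among the 10 nearest were NSDHL (0.99), SV2A, FDFT1, LSS and CYP51A1 (all 0.96), PCYT2 (0.96) and MSMO1 (0.95). Of these 7 genes, 5 are on the cholesterol list and 1 on the glycerolipid list. The members themselves had r of 0.83 to 0.96 with that mean, apart from ELOVL5 (0.73) and SREBF1 (0.36). Each member is part of that mean, which raises its own r, so the members' values cannot be set against those of other genes. The libraries share groups, depth and total, so all values of r given here describe a common pattern and carry no p.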

How the data were processed

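RNA of SJSA cells was sequenced in 18 libraries. Per the labels and methods, the authors mapped single-end reads to hg19 with TopHat and Bowtie2, counted them per gene with HTSeq 0.6.0 and deposited counts, apart from N+PD24. For that group the authors deposited a signal, which is counts divided by 1 size factor per library. Whole reads were recovered for 100% of its values (tolerance 0.001) and gave its CPM. Tables of size-factor-normalized counts and the authors' DESeq2 comparison (fold changes, p-values, group means) were not used. Of the gene rows, 28 carry date names.

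Counts were compared with edgeR 4.0.16 (quasi-likelihood, TMM, filterByExpr, R 4.3.3). Comparisons with N+PD24 used limma 3.58.1 with an intensity trend on log2(CPM + 1). Calls need a Benjamini-Hochberg adjusted p under 0.05 over all genes tested. The test scripts were tested on simulated data. Alternatives were a replicate block, other scalings, pseudocounts and filters, DESeq2 1.42.0, edgeR on recovered reads, 1 fit over 18 libraries, and leaving out replicates. Same-numbered libraries deviated together in every pair for PD24 with PD30 (correlations of 0.32, 0.68 and 0.36) and for N+PD24 with Nutlin (0.73, 0.56 and 0.57), a pairing seen in the data, not given by the labels. All members are named. Of each other list, the 3 largest rises and falls among genes called in PD30 against DMSO and in N+PD30 against Nutlin are named, besides the defining markers and the 10 genes most like the members, some of which are not reported here. The members and lists were chosen with earlier results of these data known.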

Additional observations from a re-analysis of the deposited data

Results flagged for a closer look

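The change of ACACA with PD30 differed between cells with and without Nutlin, by -0.39 on the log2 scale (SE 0.13, edgeR's quasi-likelihood test of the interaction, adjusted p = 0.049). ACACA went from 109 to 111 CPM in DMSO to 205 to 224 CPM in PD30, and from 123 to 131 CPM in Nutlin to 161 to 212 CPM in N+PD30. The difference was lost under 14 of the 19 alternatives, and its adjusted p ranged over them up to 0.23.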

How the results depend on the processing

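The 9 rises in PD30 against DMSO were called with every library left out in turn, and 8 to 9 in N+PD30 against Nutlin. Of 1835 single values recomputed, 1691 kept direction and side of the threshold, 54 gained a call, 75 lost one and 15 changed sign. The cause of the changes below was not tested. In PD24 against DMSO, leaving out 1 library gave 2 to 5 members higher and 0 to 4 lower, the replicate block gave 3 lower, and 1 fit over 18 libraries and leaving out the libraries numbered 1 (added after seeing the data) gave 0 lower. In PD24 against PD30, 0 to 1 were higher with a library left out. In Nutlin against DMSO, 1 fit over 18 libraries gave 0 higher, scaling by total counts gave 4 lower, and leaving out 1 library gave 1 to 2 lower. In N+PD24 against Nutlin, 0 to 1 were lower with a library left out. In N+PD24 against N+PD30, 9 were lower with the replicate block, 7 with scaling by total counts, 7 with quantile normalization, 7 with edgeR on recovered reads, 9 with both block and recovered reads, 9 with 1 fit over 18 libraries, 10 without the libraries numbered 1 and 3 to 9 with 1 library left out. In the interaction with PD30, 0 were lower with scaling by total counts, without the filter, with 1 fit over 18 libraries and without the libraries numbered 1 (1 higher), and 0 to 1 with 1 library left out.

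Changes of sign all concerned values that missed the threshold. With 1 library left out, SREBF1 ranged from -0.079 to 0.23 and MID1IP1 from -0.059 to 0.41 in PD30 against DMSO. In N+PD24 against Nutlin the ranges were -0.42 to 0.75 for FASN, -0.077 to 0.18 for FADS1, -0.11 to 0.050 for ELOVL5 and -0.27 to 0.018 for SREBF1, and FADS1 was -0.030 with scaling by total counts, -0.014 with quantile normalization and -0.00116 without the filter. Without the libraries numbered 1, ELOVL5 was 0.056 and ELOVL6 0.069 there, and the interaction of SREBF1 with PD30 was -0.0085.

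In PD24 against PD30, all genes called numbered 1963 higher and 1853 lower, 3120 and 2987 with the replicate block, and 494 and 390 without the libraries numbered 1. In N+PD24 against Nutlin, the block gave 4274 and 4169 against 2712 and 2747. In the other comparisons the samples share only a number. There the block gave 9 members lower in N+PD24 against N+PD30, as above, and took the call of SREBF1 in N+PD30 against Nutlin (0.58, adjusted p = 0.051 in edgeR's test). N+PD30 replicate 1 had the fewest counts (12704845), while PD24 replicate 1, also the lowest of its group for the members' sum, had 29455677. The part of depth in these values was not tested.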

Other observations

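Of 12 glycerolipid synthesis genes, 4 were higher and 1 lower in PD30 than in DMSO (edgeR's quasi-likelihood test, adjusted p under 0.05), and 9 were higher in N+PD30 than in Nutlin. Among all genes tested, 22.9% were higher and 25.4% lower in the first comparison, and 24.3% were higher in the second. PNPLA3, a lipid droplet protein, rose from a mean of 7.01 to 33.3 CPM in PD30, by 2.23 on the log2 scale, and fell on removal by 2.27. PCYT2, which makes CDP-ethanolamine, rose by 1.75 and fell on removal by 0.98. LPIN1, a phosphatidate phosphatase, rose by 1.67 and fell on removal by 2.18. GPAM, the mitochondrial glycerol-3-phosphate acyltransferase, had a log2 fold change of -0.27 in PD30, a call lost under 7 of 12 alternatives. In N+PD30 against Nutlin, PNPLA3 rose by 2.76, PCYT2 by 1.98 and LPIN1 by 1.51.

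Of 17 fatty acid oxidation genes tested, 5 were higher and 3 lower in PD30 than in DMSO, with a median log2 fold change of -0.014. Among all genes tested, 22.9% were higher and 25.4% lower, so the counts of this list were near those shares. ACADS rose by 0.97, CPT2 by 0.50 and HADHB by 0.41, and HADH fell by 1.30, ACADL by 0.71 and ACAA2 by 0.26. Without DMSO replicate 2, the calls of ACADL and ACAA2 were lost (adjusted p = 0.051 and 0.064). HADH was still 1.24 below DMSO in PD24 on the log2 scale (adjusted p = 4.98e-05). In PD24 against PD30, 1 of the 17 was lower and none was higher, where 12.2% of all genes were lower and 12.9% higher. In N+PD30 against Nutlin, ACADS rose by 1.20, SLC25A20 by 0.64 and CPT2 by 0.43, and HADH fell by 1.35. That call of CPT2 was lost without Nutlin replicate 3 or N+PD30 replicate 2 (adjusted p = 0.051 and 0.057).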
